A study of Mus musculus with 2 samples.

Results

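Expressed genes classed as long non-coding RNA, most of them without an established name, were described in RNA sequencing libraries from mouse pancreatic islets. The members were chosen by their counts: they are the genes that the deposited table classes as lncRNA and whose CPM (the count scaled to a column total of 1000000) averaged at least 1 over both libraries. The level of the members is thus set by the rule and is given as a description. This rule kept 102 of 7446 lncRNA genes, 1203 of which were detected, and 102 of the 10300 genes of any class with at least 1 CPM. The db/db library came from C57BL/6 mice labelled Lepr-/-, which lack a functional leptin receptor and are a model of obesity and type 2 diabetes. The db/m library, labelled wild type on the same background, was the control. The sources used here do not give the age, the sex or the number of animals per library. The series describes triplicates, and 1 library per group was analysed here. Ratios of db/db over db/m therefore have no replicate check and no p-value, and each carries an exact 95% interval for counting error alone.

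Long non-coding RNAs are transcripts without a long protein-coding frame. Some act in the nucleus on chromatin or on neighbouring genes, some carry microRNAs or small nucleolar RNAs in their introns, and many have no known role. They tend to be made at low levels and in few cell types, and many begin near or within protein-coding genes. Of the 102 members, 94 carry a LOC name, which is built from the NCBI gene number, 5 a Riken clone name, 1 a Gm number and 2 are fusions of the names of adjacent genes (Jmjd7-pla2g4b and ChkbCpt1b). Through the gene number or a listed synonym, 55 members were placed in the RefSeq annotation of GRCm38.p6, 47 by gene number and 8 by synonym. The other 47 are described by their counts alone. Among the placed members, 46 carry a Gm number today and 9 have another symbol, among them Snhg17, Snhg15 and Epb41l4aos (small nucleolar RNA hosts or their relatives), Mir217hg (a microRNA host gene) and Ttc39aos1 (also listed as lincRNA-EPS, known as a repressor of immune genes in macrophages). RefSeq lists 52 of the 55 as lncRNA, 2 as protein-coding (5830428H23Rik, now Zfp950, and 6330419J24Rik, now Smim10l2a) and 1 as a pseudogene (LOC102633387), so the class in the count table did not hold for those 3.

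Sequences are shown for the members whose ratio or neighbour the results turn on. Mir217hg, deposited as LOC102637282, spans chr11:28730633-28751781 on the plus strand of GRCm38.p6. The hairpins of Mir216b and, on the other strand, Mir216c lie within it, and those of Mir216a and Mir217 begin 5231 and 11947 bases past its annotated end. The family is known for its high level in acinar cells of the pancreas. The mature 5′ arms of the hairpins on its strand are given from RefSeq with the seed, bases 2 to 8, in capitals.
mmu-miR-216b-5p: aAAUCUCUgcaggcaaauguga
mmu-miR-216a-5p: uAAUCUCAgcuggcaacuguga
mmu-miR-217-5p: uACUGCAUcaggaacugacugga
No pair of these 3 shares a whole seed, with AAUCUCU in miR-216b-5p, AAUCUCA in miR-216a-5p and ACUGCAU in miR-217-5p.

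RefSeq promoters of GRCm38.p6, 250 bases before to 50 after a start, were at hand for 41 of the 55 placed members. Those of 5 members follow: the 2 with the lowest ratios (Gm35071 and Gm11963), the highest placed ratio (Gm16124), Ttc39aos1, and Gm36591, whose start lies 243 bases from that of the coding gene Surf4 on the same strand. Capitals mark every match, on either strand, to 6 searched motifs: TATAAA (the TATA box), CCAAT (the CCAAT box), GGGCGG (the GC box), TGANTCA (the AP-1 site), GAANNTTC (part of a heat shock element) and CACCTG (an E-box).
Gm35071 promoter (chr12:52446141-52446440, plus strand): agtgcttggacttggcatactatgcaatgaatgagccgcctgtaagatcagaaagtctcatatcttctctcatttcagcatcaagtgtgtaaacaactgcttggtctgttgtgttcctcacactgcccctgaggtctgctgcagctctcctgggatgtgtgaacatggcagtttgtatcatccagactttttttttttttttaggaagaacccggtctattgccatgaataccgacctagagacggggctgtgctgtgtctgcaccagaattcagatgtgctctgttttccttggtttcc
Gm11963 promoter (chr11:5485630-5485929, plus strand): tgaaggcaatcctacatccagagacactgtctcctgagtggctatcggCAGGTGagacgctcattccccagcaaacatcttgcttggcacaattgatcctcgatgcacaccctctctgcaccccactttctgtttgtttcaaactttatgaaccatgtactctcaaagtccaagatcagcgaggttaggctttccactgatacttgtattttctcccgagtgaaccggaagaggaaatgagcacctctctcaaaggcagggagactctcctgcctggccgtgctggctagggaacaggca
Gm16124 promoter (chr9:53666843-53667142, plus strand): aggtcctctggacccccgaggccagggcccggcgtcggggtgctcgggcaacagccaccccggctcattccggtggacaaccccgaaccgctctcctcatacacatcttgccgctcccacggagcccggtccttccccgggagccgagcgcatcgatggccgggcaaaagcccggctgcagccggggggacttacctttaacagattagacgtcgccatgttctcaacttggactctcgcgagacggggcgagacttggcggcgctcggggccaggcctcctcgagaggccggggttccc
Ttc39aos1 promoter (chr4:109406208-109406507, minus strand): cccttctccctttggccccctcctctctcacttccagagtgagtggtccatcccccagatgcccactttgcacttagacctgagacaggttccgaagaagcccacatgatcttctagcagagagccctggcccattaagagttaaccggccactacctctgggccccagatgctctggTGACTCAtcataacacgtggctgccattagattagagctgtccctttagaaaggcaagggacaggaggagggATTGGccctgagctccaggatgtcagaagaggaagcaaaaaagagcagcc
Gm36591 promoter (chr2:26933219-26933518, minus strand): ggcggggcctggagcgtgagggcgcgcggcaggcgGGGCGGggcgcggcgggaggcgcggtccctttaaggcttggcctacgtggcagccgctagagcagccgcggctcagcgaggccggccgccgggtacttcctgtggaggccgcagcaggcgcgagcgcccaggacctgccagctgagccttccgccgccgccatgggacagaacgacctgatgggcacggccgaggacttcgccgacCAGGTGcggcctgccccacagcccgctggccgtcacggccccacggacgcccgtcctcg
The promoters of Gm35071 and Gm16124 held none of the 6 motifs, Gm11963 held CACCTG (as CAGGTG), Ttc39aos1 held TGANTCA and CCAAT (as ATTGG), and Gm36591 held GGGCGG and CACCTG (as CAGGTG). Over all 41 members with a promoter, TATAAA was present in 4 (9.76%, against 14.2% of the 27025 promoters of the table) and CCAAT in 14 (34.1% against 37.9%). GGGCGG was present in 11 (26.8% against 35.9%) and CACCTG in 8 (19.5% against 20.03%). TGANTCA was found in 1 member promoter (2.44% against 7.93%) and GAANNTTC in 2 (4.88% against 7.95%). A match is a description of letters in this window and not a binding site. The share of G and C was 46.0% for Gm35071, 68.3% for Gm16124 and 76.3% for Gm36591, beside a median of 52.3% for the members and 52.7% for all promoters. Promoters above set limits both for G and C and for pairs of C followed by G were fewer among the members. They made up 6 of the 41 (14.6%), against 28.3% of all promoters, a difference that was not tested.

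The libraries themselves set how the members can be read. Totals were 18233695 counts for db/db and 16271129 for db/m. After scaling by the trimmed mean of M values (TMM), 1 count stood for 0.0516 CPM (db/db) and 0.0653 CPM (db/m). Although the labels give the source as islet cells, 22 acinar markers took 63.1% (db/db) and 63.4% (db/m) of all counts, with 0 called higher and 1 lower, and 21 islet endocrine markers took 0.226% and 0.165%, with 9 higher and 5 lower. All markers of both lists were detected. Duct markers took 0.0305% and 0.0392%, and endothelial, mesenchymal and immune markers took between 0.00101% and 0.00126% each, with 1 immune marker, Tyrobp, at 0 in both. By the rule for calls given below, 3.83% of all 10300 compared genes were higher and 4.04% lower. Immediate early genes were called lower in 16 of 20 compared cases and heat shock genes in 13 of 15. The part that any of these has in the ratios of the members was not tested, and in bulk RNA fewer cells of a type and less RNA per cell cannot be told apart.

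The members received few counts. Together they took 5472 (db/db) and 4874 (db/m) counts, 0.0300% of each library and 59.7% and 61.9% of all counts of the lncRNA class. Of the 102 members, 55 lay between 1 and 2 CPM, 37 between 2 and 5 CPM, 7 between 5 and 10 CPM and 3 above 10 CPM, with a median of 1.79 CPM. Just inside the limit were LOC102636463 (23 and 13 counts, 1.03 CPM), LOC102640192 (Gm15510, 24 and 12, 1.03 CPM) and LOC102635494 (Gm12576, 9 and 25, 1.02 CPM). Just outside it were LOC102638481 (15 and 19, 0.995 CPM), LOC102638816 (21 and 13, 0.975 CPM) and 2810008D09Rik (25 and 9, 0.962 CPM). Transcript lengths were not used, so the order is one of CPM and not of molecules.

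LOC102632799 received the most counts, 716 (db/db) and 531 (db/m). On the scaled values it stood at 37.0 and 34.7 CPM, a ratio of 1.07 (0.951 to 1.19), and it took 13.1% and 10.9% of all counts of the members. It has no position in the annotation used here. LOC102640618, also unplaced, was next with 143 and 238 counts, 2.11-fold lower in the db/db library (1.70 to 2.61). LOC102632428 had 177 and 173 counts (ratio 0.809, 0.652 to 1.003). These 3 were the members above 10 CPM, and the second of them was called lower, a call lost with total counts (log2 ratio -0.90).

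Gm11695 (LOC102634708, chromosome 11, 115461910 to 115463714) had 160 (db/db) and 150 (db/m) counts and a ratio of 0.843 (0.670 to 1.06). It overlaps Slc16a5, a monocarboxylate transporter gene, over 72.6% of its span, and Slc16a5 had a ratio of 0.795 (0.679 to 0.932). Snhg17 (9430008C03Rik, chromosome 2, 158353700 to 158361522), a host gene of small nucleolar RNAs, had 176 and 123 counts (ratio 1.13, 0.893 to 1.44). Its nearest coding gene, Lbp, lies 20848 bases away and had 3 and 0 counts. Gm36543 (LOC102640498, chromosome 10, 25698744 to 25714271) had 133 and 140 counts, a ratio of 0.751 (0.588 to 0.959) that lay below 1 but within the 2-fold limit. Its nearest coding gene, Smlr1, lies 162472 bases away and was at 0 in both libraries. Snhg17 and Gm36543 received counts where the closest coding gene received almost none.

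The remaining members among the 12 with the highest CPM were LOC102636315 (120 and 82 counts, ratio 1.16, 0.866 to 1.55), Gm26812 and Gm35071 (both described with the lower genes), LOC102636125 (86 and 86, 0.790, 0.579 to 1.08), LOC102632157 (105 and 64, 1.30, 0.941 to 1.80) and 2210015D19Rik. The last is listed today as Ube2d-ps and had 97 and 69 counts (1.11, 0.808 to 1.54). Its start lies 226 bases from that of Urgcp on the other strand, and Urgcp had a ratio of 1.03 (0.832 to 1.27).

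**Figure D1:**
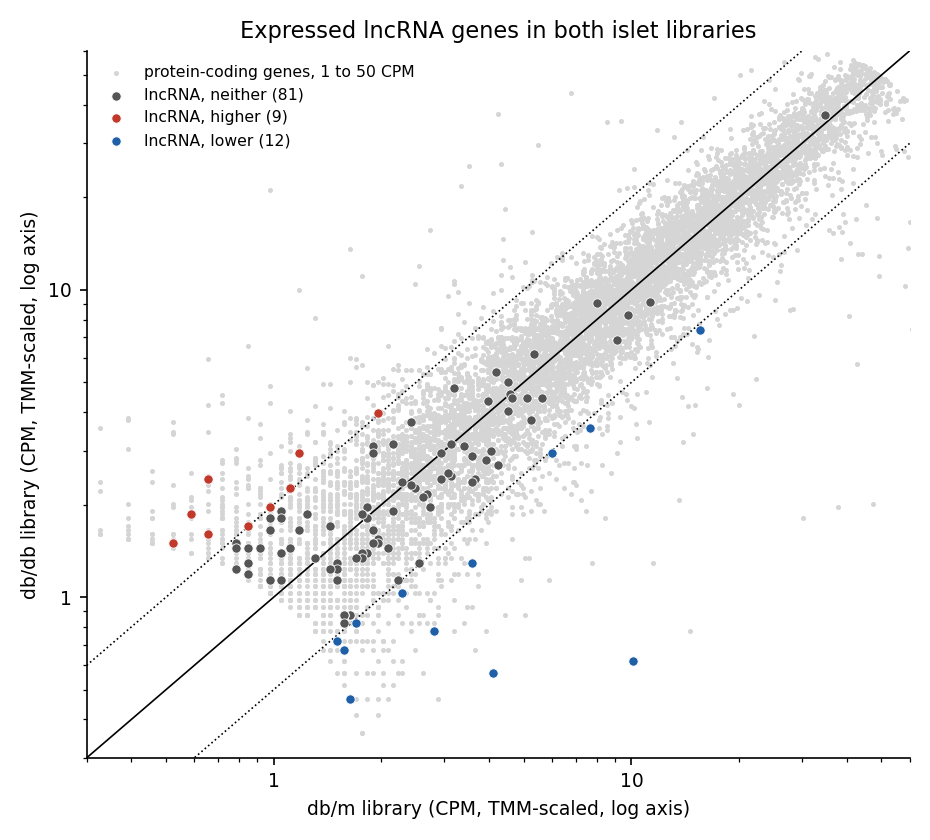
Each coloured point is an lncRNA gene with at least 1 CPM, plotted by its TMM-scaled CPM in the db/m library (x, log axis) and the db/db library (y, log axis), over protein-coding genes from 1 to 50 CPM in grey. The solid line marks equal levels and the dotted lines a 2-fold difference; 81 members were neither, 9 higher and 12 lower, and Gm35071 lies farthest from the line.

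The study profiled long non-coding RNA and mRNA of both genotypes. A member was called higher or lower where the ratio was at least 2-fold and its interval excluded 1. By this rule 9 of the 102 members were higher and 12 lower in the db/db library, together 20.6% (8.82% and 11.8%), against 7.87% (811) of all 10300 compared genes. In each direction the background was 3.83% higher and 4.04% lower. The same rule was read by level. Between 1 and 2 CPM, 13 of 55 members (23.6%) were called against 22.4% of 1279 protein-coding genes at the same level. Between 2 and 10 CPM, 7 of 44 members (15.9%) were called against 6.77% of 4325 protein-coding genes. Of these 44 members 37 lay below 5 CPM, and the levels of members and coding genes within this wide band were not matched. The differences between these shares were not tested. A gene near the 1 CPM limit can pass it through the library where it is high. The 182 compared genes of the ncRNA class, which holds most of the named long non-coding RNAs, were called in 22.0% of cases.

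At these counts only large differences can be told from 1. A member with 34 counts in all, the fewest, needed a ratio of at least 2.57 or a difference of 2.32-fold downward for its interval to exclude 1, and a member with 62 needed 1.79 or 1.75-fold. Smaller differences at these counts were not detectable at this depth. The intervals of 30 members excluded 1 whatever the size, 12 above and 18 below, or 29.4%, against 38.9% of all compared genes and 30.3% of protein-coding genes from 1 to 10 CPM.

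The median log2 ratio of the members was -0.17 (middle 50% from -0.46 to 0.49), against 0.02 over all compared genes and 0.01 for protein-coding genes from 1 to 10 CPM, and with total counts as the scale it was 0.0067, of the other sign. The total-count scale raised every log2 ratio by 0.18. On it 13 members were higher and 6 lower, so that higher genes were 68.4% of the calls in place of 42.9%, and over all compared genes the share moved likewise, from 48.7% to 67.1% (564 higher and 277 lower). The members' summed counts had a ratio of 0.887 (0.854 to 0.922), and those of lncRNA genes under 1 CPM 0.970 (0.924 to 1.02). With total counts these ratios were 1.002 (0.964 to 1.04) and 1.10 (1.04 to 1.15), so the sum of the members lay below 1 with TMM scaling and not with total counts. The spread of the members was wider than that of coding genes, with a median absolute log2 ratio of 0.48 against 0.34 for protein-coding genes from 1 to 10 CPM, whose median level was higher (3.81 against 1.79 CPM).

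**Figure D2:**
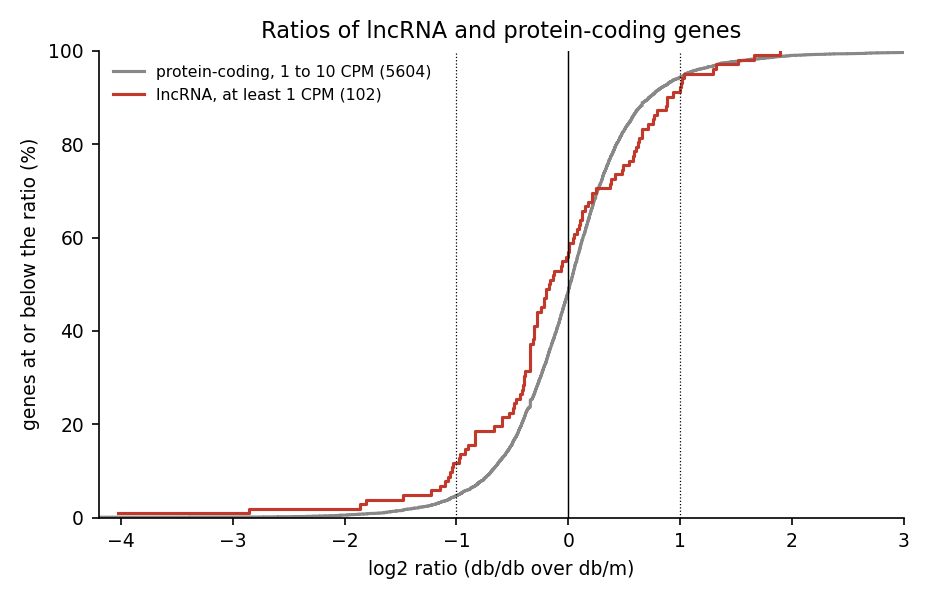
Cumulative share of genes (y, %) at or below each log2 ratio of db/db over db/m (x) for the 102 members and for 5604 protein-coding genes from 1 to 10 CPM; dotted lines mark 2-fold. The curve of the members lies above that of the coding genes at negative ratios and below it at ratios from about 0.3 to 0.9, the wider spread given in the text.

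Gm35071 showed the largest difference of the 102. This gene (LOC102638528, chromosome 12, 52446391 to 52453891) had 12 counts in db/db and 155 in db/m, or 0.619 against 10.1 CPM, a 16.3-fold lower level (9.09 to 32.3). Its nearest coding gene, Arhgap5, begins 49872 bases away and had 2078 and 1863 counts, a ratio of 0.882 (0.828 to 0.939). On its other side Nubpl, 135421 bases away, had 21 and 8 counts (ratio 2.07, 0.883 to 5.42). Neither flanking gene shared the low ratio of Gm35071.

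Gm11963 (LOC102639290, chromosome 11, 5485880 to 5506249) had 11 and 63 counts and was 7.25-fold lower in the db/db library (3.79 to 15.3). It lies 14392 bases from Xbp1, the transcription factor gene of the unfolded protein response, which had 4171 and 5907 counts and a ratio of 0.558 (0.536 to 0.581). Both were below 1, and Xbp1 did not reach the 2-fold limit. Znrf3, a membrane ubiquitin ligase gene 41033 bases away on the other side, had a ratio of 1.10 (0.889 to 1.35). Gm35071 and Gm11963 were the 2 members whose whole interval lay beyond 2-fold.

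Mir217hg had 57 (db/db) and 92 (db/m) counts, 2.04-fold lower (1.45 to 2.89). The deposited rows of the microRNA genes shown above were sparse, with 0 and 3 counts for Mir216b, 3 and 6 for Mir216a and 8 and 24 for Mir217. A library of long RNA does not measure mature microRNAs, so these counts say nothing of their level. Efemp1, an extracellular matrix gene 101373 bases away, had 49 and 90 counts (ratio 0.430, 0.297 to 0.616) and was also called lower. Its call and that of Mir217hg have the same direction, although the distance between the genes is large. With total counts as the scale the log2 ratio of Mir217hg was -0.85 and its call was lost.

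Gm34470 (LOC102637734, chromosome 6, 5563663 to 5570318) had 14 and 23 counts, 2.08-fold lower (1.03 to 4.37). Its nearest coding gene is Pdk4, whose product restrains pyruvate oxidation, 67385 bases away. Pdk4 had 102 and 938 counts, a ratio of 0.0859 (0.0694 to 0.106). Gm34470 and Mir217hg were the members called in the same direction as their nearest coding gene. The call of Gm34470 was lost on the total-count scale, at -0.88.

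Among the other lower members, Gm26812 (LOC102637329, chromosome 8, 121850186 to 121879518) had 69 and 117 counts, 2.15-fold lower (1.58 to 2.93), and lies 1628 bases from the amino acid transporter gene Slc7a5, with 3458 and 2444 counts and a ratio of 1.12 (1.06 to 1.18). The pair differed in direction, each with an interval excluding 1, and the call of Gm26812 was lost with total counts (-0.93). Gm38487 (LOC102636414, chromosome 12) had 25 and 55 counts, 2.78-fold lower (1.71 to 4.66). It lies wholly within Stxbp6, a gene for a SNARE-binding protein on the same strand, which had a ratio of 0.912 (0.752 to 1.11). Gm12576 (LOC102635494, chromosome 11) had 9 and 25 counts, 3.51-fold lower (1.59 to 8.56). Gm34232 (LOC102637422, chromosome 4) had 13 and 24 counts, 2.34-fold lower (1.14 to 4.995). It lies within Mllt3, a gene for a reader of acylated histones, at a ratio of 0.699 (0.544 to 0.898).

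The other 4 lower members have no position. LOC102640618 is described above. LOC102639322 had 15 and 43 counts and was 3.63-fold lower (1.98 to 7.03). LOC102638464 had 20 and 35 counts (2.21-fold, 1.24 to 4.05) and LOC102639751 had 16 and 26 (2.06-fold, 1.06 to 4.10). With total counts the calls of LOC102638464 and LOC102639751 were lost too, at log2 ratios of -0.97 and -0.86, and LOC102639322 stood at -1.68.

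Among the higher members Gm16124 had the largest ratio. It (LOC102636154, chromosome 9, 53667093 to 53681330, plus strand) had 47 (db/db) and 10 (db/m) counts, a ratio of 3.71 (1.85 to 8.24). It is antisense to Cul5, the scaffold of a family of ubiquitin ligases. Their starts lie 414 bases apart, and 2.91% of its span overlaps Cul5. Cul5 itself had 244 and 153 counts, a ratio of 1.26 (1.03 to 1.55), and so lay above 1 but within the 2-fold limit.

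Ttc39aos1 (LOC102635290, chromosome 4, 109402279 to 109406257, minus strand) had 57 and 18 counts, a ratio of 2.50 (1.45 to 4.52). It lies wholly within Ttc39a on the other strand, which had 10 and 4 counts (ratio 1.98, 0.570 to 8.63). Here the antisense gene received more counts than the coding gene around it. Gm12915 (LOC102634646, chromosome 4), on the strand opposite to the inositol phosphatase gene Inpp5b, had 44 and 17 counts, a ratio of 2.05 (1.15 to 3.82), while Inpp5b was at 1.07 (0.717 to 1.61).

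Gm36591 (LOC102640555, chromosome 2, 26928248 to 26933268, minus strand) had 77 and 30 counts, a ratio of 2.03 (1.31 to 3.20). It lies wholly within Surf4, the gene of a cargo receptor of the endoplasmic reticulum, on the same strand. Surf4 had 2441 and 1400 counts, a ratio of 1.38 (1.29 to 1.47). The intervals of both ratios overlap, and reads from the shared stretch of one strand may belong to either gene. Gm36559 (LOC102640518, chromosome 15) had 29 and 8 counts, a ratio of 2.86 (1.28 to 7.25), and lies within Tatdn1, which was at 1.17 (0.836 to 1.65). Gm26782 (LOC102640338, chromosome 14) had 33 and 13 counts, a ratio of 2.01 (1.03 to 4.15), and touches the telomerase-associated gene Tep1 over 2.64% of its span. Tep1 had a ratio of 0.698 (0.601 to 0.811), in the other direction.

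The higher members without a position were LOC102638489 with 36 and 9 counts (ratio 3.16, 1.49 to 7.46), LOC102635728 with 31 and 10 (2.45, 1.17 to 5.602) and LOC102639583 with 38 and 15 (2.002, 1.08 to 3.92). The calls of LOC102639583 and Gm26782 lay at the limit and were lost with DESeq2 size factors, at log2 ratios of 0.993 and 0.996. No higher member reached 4-fold.

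**Figure D3:**
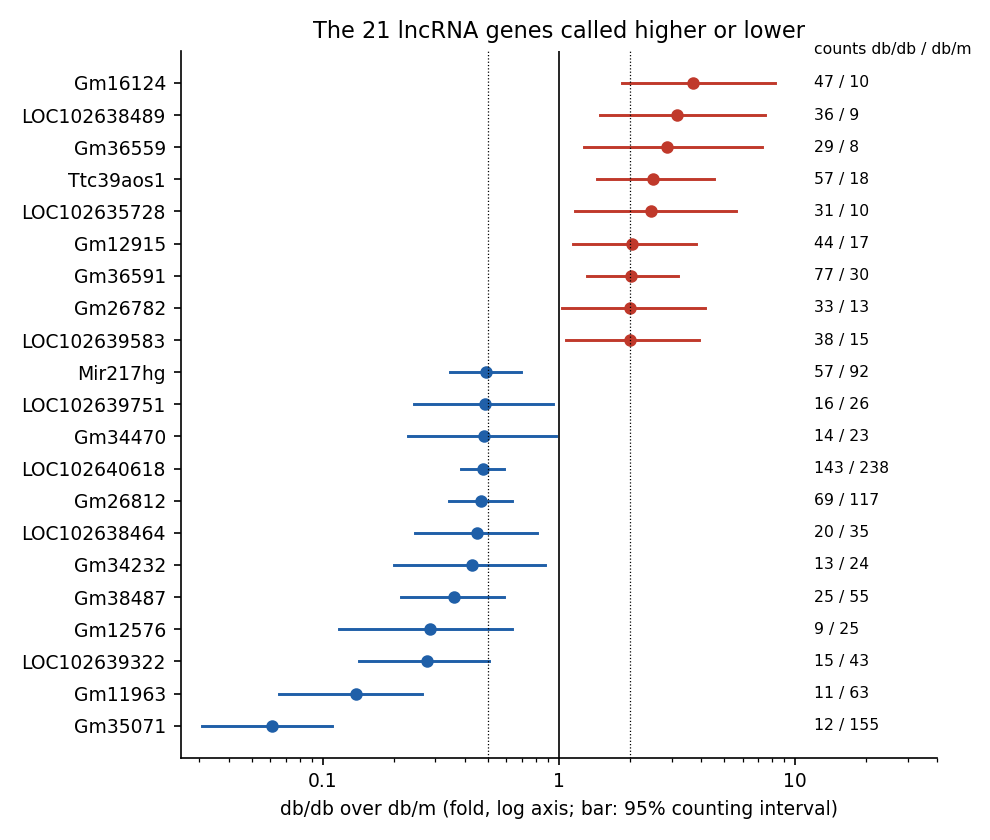
Ratio of db/db over db/m (x, log axis) with its 95% counting interval for the 21 called members, with the counts of both libraries at the right; dotted lines mark 2-fold. The 9 higher members lie between 2.002 and 3.71, and of the 12 lower members Gm11963 and Gm35071 have intervals wholly beyond 2-fold.

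The genomic neighbours of the 55 placed members were read from the same annotation. Of these, 34 (61.8%) overlap a protein-coding gene, 5 more (9.09%) lie within 5 kb of one and 16 (29.1%) lie farther away, at a median distance of 44596 bases and at most 415744 (Gm33867 from Lmo4). For 20 of the 34 the whole span lies within the coding gene. Strand was read against the coding gene with the largest overlap. It is the same in 9 and the other in 10, and in 15 the table gives no strand for 1 or both of these genes. Starts within 1 kb of a coding gene's start on the other strand were found for 4 members (Ube2d-ps, Gm36591, Gm16124 and Gm15510). On the same strand such starts were found for 2 (Gm36591 and Jmjd7-pla2g4b). These are 7.27% and 3.64% of the placed members, against 7.94% and 0.19% of all 4661 placed lncRNA genes. Among the 650 with counts under 1 CPM the shares were 18.2% and 0.46%. A listed start was needed, which 41 of the 55 members have. No placed member overlaps, or lies within 5 kb of, a gene of the immediate early, heat shock, acinar or islet endocrine lists.

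The share that overlaps a coding gene was 26.9% among 3956 placed lncRNA genes without a count, 41.2% among 650 with counts under 1 CPM and 61.8% among the members. Overlap on the same strand went from 0.43% to 4.46% and 16.4% over these groups, and overlap on the other strand from 16.6% to 23.2% and 18.2%. Overlaps without a known strand made up a further 9.96%, 13.5% and 27.3%, so both stranded shares are lower bounds. The nearest coding gene had at least 1 CPM for 43.1%, 67.5% and 78.2% of them. No source used here states whether counting used the strand, so reads of a member and of a coding gene that overlaps it, on either strand, may have been assigned to the wrong one, and the values of the 34 overlapping members are uncertain. The part this has in the levels was not tested.

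**Figure D4:**
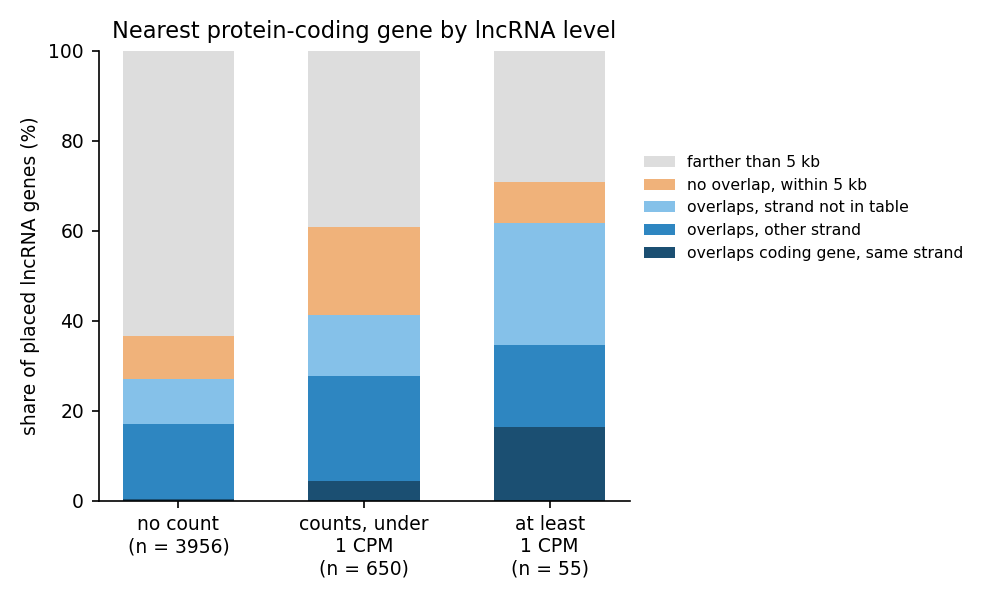
Share of placed lncRNA genes (y, %) by their relation to the nearest protein-coding gene, for genes with no count, with counts under 1 CPM and with at least 1 CPM (x). The share that overlaps a coding gene is 26.9%, 41.2% and 61.8% from left to right.

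The ratios of the members were set beside those of their nearest coding genes. In 43 pairs the coding gene also had at least 1 CPM, and the other 12 pairs were left out. Both ratios lay on the same side of 1 in 25 of the 43 pairs. Ratios lay above 1 for 44.1% of all members and 52.4% of all compared genes. Spearman's rank correlation of the log2 ratios was 0.396 over these 43 pairs and 0.392 over the 27 overlapping ones. Over the 12 compared pairs farther apart than 5 kb it was 0.510, so it was not higher for overlapping pairs. These values are a description across genes that share the same 2 libraries. The median absolute difference between the log2 ratios of a pair was 0.71. Of the 43 neighbours 3 were called (6.98%, against 7.87% of all compared genes): Efemp1 and Pdk4, both lower, and Epb41l4a, which was higher. Epb41l4a had 53 and 12 counts (ratio 3.49, 1.84 to 7.18), while Epb41l4aos (2410004N09Rik), 338 bases away, had 42 and 41 (0.810, 0.514 to 1.28). Their intervals do not overlap.

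Calls were also split by overlap, a comparison chosen after the values were seen. Over all compared genes 3.83% were higher and 4.04% lower, and of protein-coding genes between 1 and 2 CPM 13.0% and 9.46%. Of the 34 members that overlap a coding gene 6 were higher and 3 lower, and of the 21 that do not 0 were higher and 5 lower. Medians of the log2 ratio were -0.03 and -0.34. On the total-count scale, where 564 of all 10300 genes were higher and 277 lower, the counts were 6 and 3 against 1 and 2, with medians of 0.15 and -0.16, so the direction of the first group changed sign with the scale. The difference between the groups was not tested. The 47 unplaced members had 3 higher and 4 lower calls and a median of -0.06, or 6 higher, 1 lower and 0.12 with total counts.

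**Figure D5:**
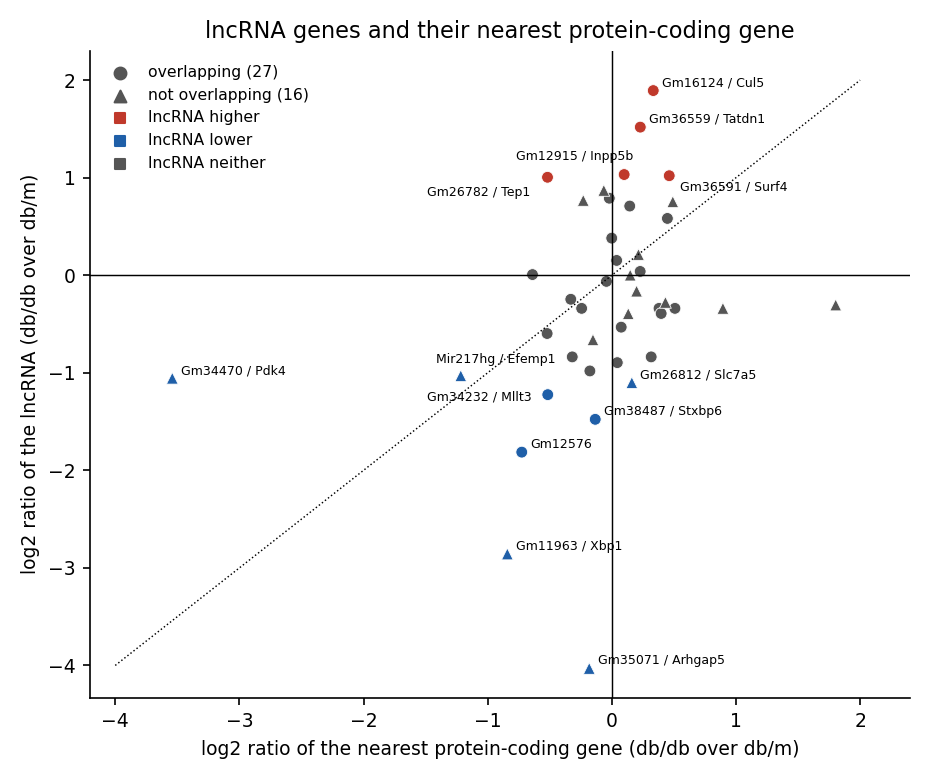
Log2 ratio of each lncRNA (y) against that of its nearest protein-coding gene (x) for the 43 pairs in which both have at least 1 CPM, with circles for overlapping and triangles for separate genes, colours for the call of the lncRNA and a dotted line at equal ratios. Gm34470 with Pdk4 and Mir217hg with Efemp1 are the called pairs at the left, and most other neighbours lie within 2-fold of 1.

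Of the 9 members with a symbol other than a Gm number, Ttc39aos1 was higher, Mir217hg lower and the other 7 neither. Zfp950 (5830428H23Rik), a zinc finger gene listed as protein-coding, had 93 and 49 counts, a log2 ratio of 0.58 with its ratio between 1.05 and 2.17, and Smim10l2a (6330419J24Rik) had 29 and 29 (0.790, 0.456 to 1.37). Snhg15 (Gm11974, chromosome 11, 6525591 to 6528760) had 22 and 23 counts (ratio 0.756, 0.402 to 1.42). For comparison, of 59 named long non-coding RNAs listed with earlier results of these data known, 37 were found under that name and 18 were compared. Of those 18, 5 were higher (Airn, Meg3, Rian, Snhg11 and Trp53cor1) and 0 lower, with a median log2 ratio of 0.24. Snhg11 is classed as protein-coding in the deposited counts. Among the 13 called neither, intervals lay below 1 for Neat1 (1629 and 2488 counts, 0.517), Rmrp (3142 and 4734, 0.525), Malat1 (0.782) and Rpph1 (0.894). They lay above 1 for Kcnq1ot1 (1.31) and Peg13 (1.18). Neat1 and Rmrp came close to the 2-fold limit. Over all compared genes 3.83% were higher and 4.04% lower. The 5 higher RNAs lay between 1 and 2 CPM, where 13.0% of protein-coding genes were higher and 9.46% lower. Meg3, an imprinted RNA of the Dlk1 region, had 36 and 14 counts (ratio 2.03, 1.07 to 4.08), and Rian, made from the same region, 38 and 9 (3.34, 1.59 to 7.85). Snhg17, Snhg15 and Epb41l4aos of that list are members here under older names, and were not among the 37.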

How the data were processed

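Total RNA of islets isolated by collagenase and a density gradient was depleted of ribosomal RNA, per the labels' protocols. HISAT2 2.0.4 and the builds mm10 and GRCm38 are listed, per the submitters' processing notes. No source used here names the counting program, its annotation or its strand setting. The authors deposited raw counts, whole numbers for each gene, beside a class label. Groups came from the library titles. Counts were scaled with TMM factors over all genes (edgeR 4.0.16, R 4.3.3). Ratios carry exact Clopper-Pearson intervals at 95% from the db/db share of both counts (scipy 1.17.1, Python 3.11.15). With 1 library per group the intervals cover counting error only. PCR copies are not independent molecules, so the intervals may be too narrow even for counting error. A count of 0 was set to a floor of 3 counts for log2 ratios, or to the other count where lower. The calling script was tested on simulated data. Positions, neighbours, promoters and microRNAs came from RefSeq tables of GRCm38.p6, and where a gene has several promoters the first listed was used. The members named are the 12 with the most CPM, all called members, those next to the limit and those whose neighbour is described; Snhg15, Epb41l4aos, Zfp950, Smim10l2a and Gm33867 were picked with their values known. The members, lists, rules and alternatives were chosen with earlier results of these data known. The neighbour of Gm12576 is not reported here. Alternatives were other scalings (total counts, DESeq2 1.42.0), filters, fold limits, intervals and windows.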

Additional observations from a re-analysis of the deposited data

How the results depend on the processing

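With total counts 6 members were lower and the median log2 ratio was 0.0067. Scaling by total counts lost 6 calls and gained 4, and DESeq2 size factors lost 2 and gained 0. Without a filter on low counts (1203 genes) 36 were higher and 51 lower (7.23%, against 8.25% of all genes), with a median of -0.34, the value that equal counts receive. At 2 CPM (47 genes) 2 were higher and 6 lower, or 17.0% against 5.25% of all genes, and at 5 CPM (10 genes) 0 and 3, or 30.0% against 3.54%, with a median of -0.32. These shares of all genes take in every level above the filter and were not matched to the level of the members. A fold limit of 4 and an interval wholly beyond 2-fold each left 0 higher and 2 lower (1.96%, against 1.495% and 2.29% of all compared genes). An alternative chosen after seeing the data left out members that overlap a coding gene or have no position. Of its 21 genes 0 were higher and 5 lower (23.8%, against 7.87% of all compared genes), with a median of -0.34. These smaller sets hold fewer genes by construction. On the total-count scale LOC102632799 stood at 0.27 on the log2 scale, outside its interval. The other scaling and fold settings kept both counts within 1.5 times, as did leaving out the 3 members not listed as lncRNA. The number of members within the window was 36 at 1 kb and 48 at 50 kb, against 39. No paired analysis was possible because each group has 1 library. Leaving out a library was not possible for the same reason.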
